A study of Mus musculus with 2 samples.

Results

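The 10 MHC class I presentation genes B2m, H2-K1, H2-D1, H2-T23, Tap1, Tap2, Tapbp, Nlrc5, Psmb8 and Psmb9 were taken by name from the 32285 genes counted in 2 single-cell RNA sequencing libraries of mouse ovarian tumors, and all 10 were measured. They were described in cancer cells against the other cells of the tumors, and in WT against TSK tumors. The tumors grew under the skin of female C57BL/6 mice, 6 to 8 weeks old, injected with SO. This is a syngeneic ovarian cancer line described as lacking p53 and carrying the myc and H-ras oncogenes. WT mice carried no transgene or mutation named in the labels. TSK (tight skin) mice carried 1 copy of an Fbn1 allele with an internal duplication, which gives an oversized fibrillin and a fibrotic connective tissue, and the same SO line was injected into both genotypes. The tumors of each genotype were pooled, so that each genotype had 1 library; red blood cells and dead cells were depleted and no cell type was selected. With 1 library per genotype there were no replicates, genotype and library cannot be told apart, and no test between genotypes was possible.

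Each molecule of RNA was counted by its unique molecular identifier (UMI) at the 3′ end of the transcript. The depth was 21225411 UMIs over 2332 barcodes for WT (median 4324) and 48296765 over 4436 for TSK (median 3068). Cells with at least 200 genes, at least 500 UMIs and at most 10% mitochondrial UMIs were used, without an upper limit. A set of 263 barcodes occurred in both libraries and was left out. This kept 1442 WT cells and 2961 TSK cells, with medians of 7658.5 and 7302 UMIs per cell. Levels are UMIs per 1000000 UMIs of the class (CPM) with exact Poisson 95% intervals, and ratios between libraries are log2 ratios of CPM with exact conditional 95% intervals. The intervals cover the counting error of pooled UMIs only, not the spread between cells or between mice, and are too narrow for either.

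MHC class I molecules carry peptides from inside a cell to its surface, where CD8+ T cells and natural killer cells read them. A heavy chain (H2-K1 and H2-D1 in this strain, H2-T23 for the non-classical molecule Qa-1) pairs with the light chain beta-2 microglobulin, encoded by B2m. Peptides are cut by the proteasome, in which the interferon-inducible subunits Psmb8 and Psmb9 replace the constitutive Psmb5 and Psmb6, are pumped into the endoplasmic reticulum by the transporter made of Tap1 and Tap2, and are loaded with the help of tapasin, encoded by Tapbp. Nlrc5 is the transactivator of class I genes, and interferon gamma raises the whole set in many cell types.

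Of the 10 genes, 8 lie on chromosome 17, in or near the major histocompatibility complex (GRCm38, GENCODE M21). H2-K1 spans chr17:33996017-34000347 on the minus strand and H2-D1 chr17:35262730-35267499 on the plus strand. B2m lies on another chromosome, at chr2:122147686-122153083, on the plus strand and 3.15 Mb from Fbn1, the gene altered in TSK mice. Nlrc5 lies at chr8:94434356-94527272. The upstream sequences of Tapbp, Psmb8 and Psmb9, genes that were also lower in TSK cancer cells, are not printed. Those of the light chain, the heavy chains and Tap1, which lies head to head with Psmb9, are shown as examples. They are RefSeq sequences of build GRCm38.p6, each the 250 bases before an annotated start site, 5′ to 3′ on the strand of the gene. Capitals mark matches, on either strand, to GAAA, a pair of any bases, then GAAA again (the core of an interferon-stimulated response element), GGGATTCCC (a kappa B site), TGACG (the core of a cyclic AMP response element) and ATTGG (an inverted CCAAT box).
B2m (chr2:122147437-122147686, plus strand): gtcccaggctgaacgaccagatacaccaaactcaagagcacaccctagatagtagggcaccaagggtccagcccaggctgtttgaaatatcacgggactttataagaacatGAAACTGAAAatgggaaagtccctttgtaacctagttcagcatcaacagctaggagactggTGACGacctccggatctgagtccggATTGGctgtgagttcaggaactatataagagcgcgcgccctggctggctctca
H2-K1 (chr17:34000348-34000597, minus strand): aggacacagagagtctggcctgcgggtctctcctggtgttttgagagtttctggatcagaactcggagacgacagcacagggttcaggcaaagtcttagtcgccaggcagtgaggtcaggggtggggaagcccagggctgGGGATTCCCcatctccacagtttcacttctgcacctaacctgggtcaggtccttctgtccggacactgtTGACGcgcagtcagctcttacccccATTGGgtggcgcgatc
H2-D1 (chr17:35262844-35263093, plus strand): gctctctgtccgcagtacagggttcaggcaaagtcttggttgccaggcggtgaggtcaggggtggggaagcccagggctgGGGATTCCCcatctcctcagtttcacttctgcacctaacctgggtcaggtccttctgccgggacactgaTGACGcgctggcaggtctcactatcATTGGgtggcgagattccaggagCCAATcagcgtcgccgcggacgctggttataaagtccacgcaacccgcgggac
H2-T23 (chr17:36032702-36032951, minus strand): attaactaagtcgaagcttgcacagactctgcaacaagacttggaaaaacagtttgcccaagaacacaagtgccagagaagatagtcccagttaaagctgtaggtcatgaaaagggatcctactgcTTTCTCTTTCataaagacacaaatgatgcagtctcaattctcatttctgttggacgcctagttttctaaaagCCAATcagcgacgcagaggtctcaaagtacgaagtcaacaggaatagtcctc
Tap1 (chr17:34187306-34187555, plus strand): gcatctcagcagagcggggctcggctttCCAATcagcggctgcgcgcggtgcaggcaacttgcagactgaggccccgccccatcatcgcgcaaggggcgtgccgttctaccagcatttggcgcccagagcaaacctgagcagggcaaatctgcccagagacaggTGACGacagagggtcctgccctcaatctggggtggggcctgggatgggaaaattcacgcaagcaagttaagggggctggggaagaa

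Windows from 250 bases before to 50 after the start were given for 8 of the 10 genes. The interferon-stimulated response core was found in 2 of the 8, B2m (139 bases before the start) and H2-T23 (124 bases before), against 3.44% of 32851 windows of all genes. GGGATTCCC was found in 2 of the 8, H2-K1 and H2-D1, against 0.353% of all windows. TGACG was found in 5 of the 8 and ATTGG in 7 of the 8, against 20.8% and 37.4% of all windows. The window of Psmb8 held no match, and that of Tapbp matched ATTGG only. H2-K1 and H2-D1 are near-identical copies and share much of their upstream sequence, and the windows of Tap1 and Psmb9 overlap by 275 bases on opposite strands, so these matches are not independent. A match of letters is a description and not evidence of binding.

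Cells were assigned to classes by the UMIs of a few marker genes. Cancer cells had at least 3 UMIs of Lgals7 and Krt18 together, at least 1 of Cdkn2a and none of the blood cell genes Ptprc and Csf1r. There were 77 such cells for WT and 884 for TSK. The sums behind the levels were 2674256 UMIs for WT and 28806028 for TSK cancer cells, and their median depths were 34643 and 30710.5 UMIs per cell. Epithelial keratins that had no part in the choice were found in few cells of this class. Krt8 was found in 2.60% of WT and 4.30% of TSK cancer cells, at 31.4 CPM in WT, from 2 cells, and 7.36 CPM in TSK. Krt19 was found in 7.79% and 4.07%, and Krt14 in none. The class is therefore defined by its gate genes, of which Krt18 is itself a keratin, and not by a broader epithelial keratin program. T cells (434 WT and 249 TSK), macrophages (154 and 245), fibroblasts (114 and 203) and endothelial cells (46 and 52) carried the markers held back for a check. The gate meant for dendritic cells did not hold in the TSK library, where Xcr1 was found in 0% and Clec9a in 7.14% of its 28 cells and Cdkn2a stood at 403 CPM, and no comparison between the libraries rests on it.

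RNA of macrophages and T cells was scarce in the cancer cells. This is partly set by the gate, which removed 11 WT and 96 TSK cells with a UMI of Ptprc or Csf1r. Lyz2, a macrophage gene, stood at 3.37 CPM in WT and 4.37 in TSK cancer cells, against 1889 and 3012 in macrophages. The T cell gene Cd3g was at 0 in WT cancer cells and at 0.139 CPM in TSK cancer cells. The cancer cells of the libraries differed in cell cycle genes, with Mki67 at 51.6 CPM in WT and 152 in TSK, and Top2a at 168 and 576. They also differed in the genes of their gate, with Krt18 at 995 CPM in WT and 323 in TSK, and Lgals7 at 1453 and 874. The median count of Lgals7 and Krt18 together was 55 UMIs per WT and 23 per TSK cancer cell. With the marker minimums doubled all 10 class I genes were lower in TSK cancer cells, from -2.68 to -1.02 on the log2 scale. The share of all genes that were lower at that setting was not counted. Outside the cancer class, 54 WT and 513 TSK cells had a Cdkn2a UMI. In TSK fibroblasts Cdkn2a stood at 107 CPM, against 2.78 in WT fibroblasts. Trp53, the gene of p53, was counted in cancer cells at 61.3 CPM in WT and 107 in TSK, though the line is described as lacking p53. Where on the gene these UMIs lie was not examined.

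Cancer cells in the TSK library had lower levels of the whole class I presentation set than those in the WT library. The sum of the 10 genes was 4745 CPM in WT cancer cells (4663 to 4829) and 1337 CPM in TSK cancer cells (1323 to 1350). All 10 genes were 2-fold or more lower in TSK, and all 10 intervals lay below 0. Of the 12261 genes with at least 50 UMIs in cancer cells, 5.29% were 2-fold or more lower in TSK, 10.2% were 2-fold or more higher, and 14.8% had an interval below 0. The median log2 ratio of the 10 genes was -1.85, that of all genes tested was 0.18, and 1.39% of all genes lay at or below the median of the 10.

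B2m, the light chain shared by all class I molecules, had the highest level of the set. It stood at 2373 CPM in WT cancer cells and at 708 CPM in TSK cancer cells, a 3.35-fold difference (log2 ratio -1.74, -1.79 to -1.70). H2-K1 stood at 809 CPM in WT and 210 in TSK (log2 ratio -1.95, 3.86-fold). The heavy chains of the classical molecules were thus further apart between the libraries than the light chain, with H2-D1 at 755 and 190 CPM (log2 ratio -1.99, 3.98-fold). The non-classical H2-T23, whose product Qa-1 is read by the NKG2A receptor, had the largest difference of the 10, at 133 and 20.8 CPM (log2 ratio -2.68, -2.87 to -2.49, 6.40-fold). H2-K1 and H2-D1 made up similar parts of their sum in both libraries, since H2-K1 took 51.7% (50.2 to 53.2%, exact binomial) in WT and 52.5% (51.6 to 53.4%) in TSK cancer cells. The heavy chain genes are close paralogs, so how reads were split among them is uncertain.

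The peptide supply genes were at lower levels in both libraries than B2m, H2-K1 and H2-D1. UMIs at the 3′ end do not scale with transcript length. Differences between genes in capture and read assignment were not measured, so levels of different genes compare only roughly. Tap1 stood at 86.4 CPM in WT and 27.5 in TSK cancer cells (log2 ratio -1.65) and its partner Tap2 at 33.3 and 6.91 (log2 ratio -2.27, -2.64 to -1.89). Tapbp, the bridge between the transporter and the heavy chain, stood at 105 and 31.6 CPM (log2 ratio -1.73). Psmb8, the subunit with the chymotrypsin-like site of the immunoproteasome, stood at 304 and 99.9 CPM (log2 ratio -1.60). Psmb9 was lower by more than Psmb8, at 111 and 24.5 CPM (log2 ratio -2.18, -2.38 to -1.98). Nlrc5 had the smallest difference, at 35.9 and 17.8 CPM (log2 ratio -1.01, -1.33 to -0.68), from 96 UMIs in WT and 514 in TSK.

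**Figure D1:**
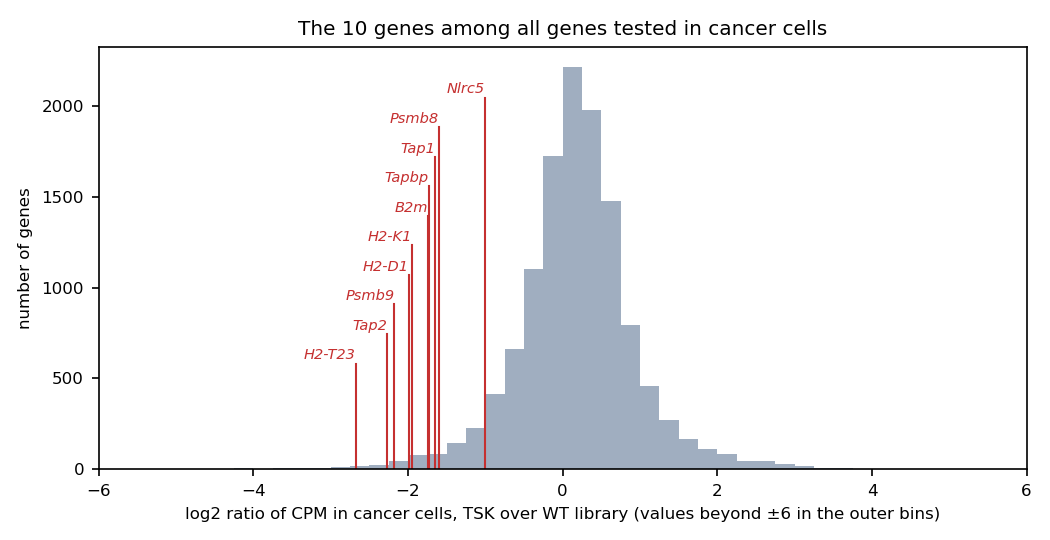
Histogram of the log2 ratio of CPM between TSK and WT cancer cells (x axis) for the 12261 genes tested (y axis, number of genes), with a red line at each of the 10 class I genes. The lines run from -2.68 (H2-T23) to -1.01 (Nlrc5), in the lower tail of all genes, whose median was 0.18.

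The difference was smaller in cancer cells without a UMI of the cell cycle genes Mki67 and Top2a. A UMI of Mki67 or Top2a was found in 39 of 77 WT cancer cells (50.6%) and 728 of 884 TSK cancer cells (82.4%). Among cells with such a UMI, all 10 genes were 2-fold or more lower in TSK (6.24% of 11936 genes), with a median log2 ratio of -2.10. Among the 38 WT and 156 TSK cells without one, 5 of 10 were 2-fold or more lower (2.81% of 7071 genes), and the median was -0.99. In those cells B2m stood at 2468 CPM in WT and 1287 in TSK (log2 ratio -0.94), H2-K1 at 684 and 342, and Nlrc5 at 31.4 and 32.2 (0.04, -0.56 to 0.67). TSK cancer cells without a UMI of either gene thus held more of B2m and H2-K1 than those with one, at 643 and 195 CPM, while in WT cancer cells B2m stood at 2317 CPM with and 2468 without one. For 6 of the 10 genes the interval of the log2 ratio of WT cells with over WT cells without such a UMI lay above 0 (27.3% of 6057 genes), among them H2-K1 (0.37), Psmb8 (0.74) and Tap1 (1.35, 0.87 to 1.87). It included 0 for Tap2, Tapbp and Nlrc5 and lay below 0 for B2m (-0.09, -0.16 to -0.02). Cells without such a UMI were also shallower, with medians of 25388 UMIs in WT and 17445.5 in TSK, against 47676 and 34629. In cancer cells of 20000 to 50000 UMIs (33 WT and 487 TSK) all 10 genes were lower in TSK and 9 were 2-fold or more lower (6.12% of 11110 genes). The part of cell cycle state in the difference was not tested beyond this split, which was chosen after seeing the data.

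The lower level was spread over the TSK cancer cells. Each cancer cell was thinned at random to 5000 UMIs, which left out 6 of 77 WT and 49 of 884 TSK cells that were shallower. The UMIs of the 10 genes per cell ranged from 0 to 70 in WT, with a median of 20 and quartiles of 12.5 and 36.5. In TSK they ranged from 0 to 61, with a median of 4 and quartiles of 1 and 11. The ranges overlapped, but 748 of 835 TSK cells (89.6%) lay below the WT median and 6 of 71 WT cells lay below the TSK median.

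No UMI of H2-K1 or H2-D1 was found in 10 of 71 thinned WT cells (14.1%, exact binomial interval 7.0 to 24.4%) and in 375 of 835 thinned TSK cells (44.9%, 41.5 to 48.4%). Before thinning, these shares were 9.09% and 23.6%. No UMI of any of the 10 genes was found in 2 WT cells (2.82%) and 142 TSK cells (17.0%). A cell without a UMI may still express the gene below what 5000 UMIs can show. In macrophages, thinned the same way, the median per cell was 43 UMIs in WT and 33.5 in TSK, and 0 of 135 and 1 of 200 cells lacked both heavy chains. In fibroblasts the medians were 27 and 16, and 1.89% and 6.52% of cells lacked both.

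**Figure D2:**
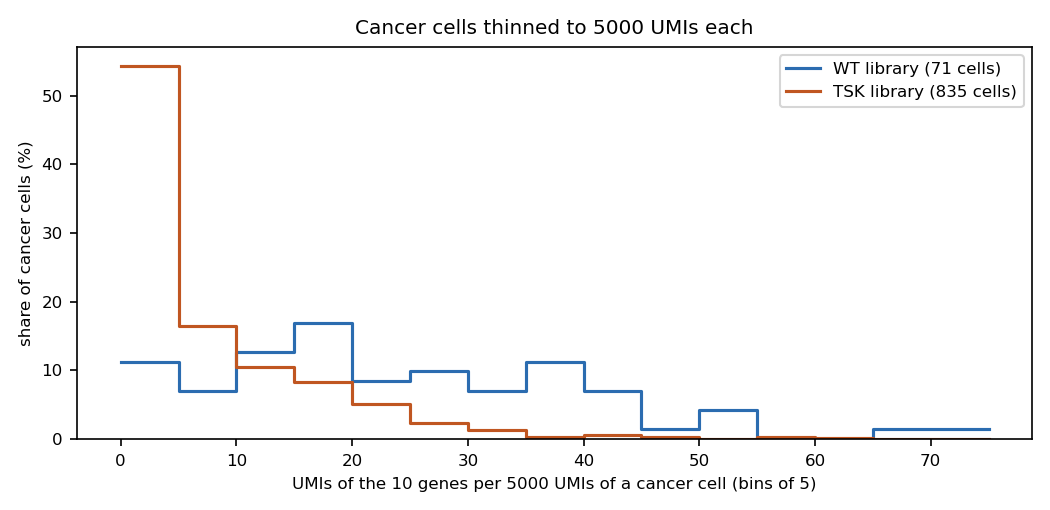
Share of cancer cells (y axis, %) by the UMIs of the 10 genes per 5000 UMIs of the cell (x axis, bins of 5), for 71 WT cells and 835 TSK cells. The TSK cells crowd in the lowest bin (median 4), and the WT cells spread from 0 to 70 (median 20).

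The members were also compared across single cancer cells. In the thinned cells, Spearman's rho between B2m and the sum of H2-K1 and H2-D1 was 0.58 over 71 WT cells and 0.68 over 835 TSK cells. Between these heavy chains and the immunoproteasome subunits Psmb8 and Psmb9 it was 0.57 and 0.56, and between B2m and these subunits 0.12 and 0.54. Between the heavy chains and the constitutive subunits Psmb5 and Psmb6 it was 0.32 and 0.03. These are descriptions across cells of 1 library each, from sparse counts at 1 depth.

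T cells, macrophages, fibroblasts and endothelial cells, the other classes with 20 or more cells in both libraries, differed less between the libraries. A large difference was not confined to the cancer class. In the 510 WT and 1090 TSK cells that met no gate, the sum of the 10 genes was 6129 CPM in WT and 1869 in TSK. B2m stood at 2845 and 885 CPM there, and the make-up of these cells was not examined. The B cell gate (5 WT and 17 TSK cells) and the dendritic gate (18 and 28), with median log2 ratios of -2.38 and -2.47, are not relied on, since Cdkn2a stood at 344 and 403 CPM in their TSK cells. In T cells, 0 of 10 genes were 2-fold or more lower in TSK (2.18% of all 6688 genes tested were, and 3.39% were 2-fold or more higher), and the median log2 ratio was -0.24. In macrophages the count was also 0 of 10 (2.26% of 7391 genes, with 3.23% higher) and the median -0.43. In fibroblasts 1 of 10, Tap2, was 2-fold or more lower (2.99% of 8214 genes, with 15.8% higher), with a median of -0.77. In endothelial cells these were H2-T23 and Nlrc5 (2 of 10, against 5.42% of 4061 genes, with 12.5% higher), with a median of -0.66. The interval lay below 0 for 6 of the 10 genes in T cells (6.8% of all genes tested), 7 in macrophages (11.3%), 8 in fibroblasts (11.7%) and 7 in endothelial cells (12.6%). It lay above 0 for 1, Psmb8 in T cells (19.7% of all genes tested in T cells).

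B2m was lower in TSK in each of these 4 classes. It stood at 2932 CPM in WT and 2064 in TSK T cells (log2 ratio -0.51), and at 4143 and 2894 in macrophages (-0.52). In fibroblasts it stood at 2850 and 1449 (-0.98) and in endothelial cells at 3075 and 1753 (-0.81). H2-D1 did not differ detectably in macrophages, at 1206 and 1224 CPM (log2 ratio 0.02, -0.05 to 0.10), though its ratio was -0.11 (-0.18 to -0.03) when scaled to the median gene ratio and -0.13 with Gm42418, a gene model that overlaps ribosomal RNA sequence, left out of the totals. Psmb8 was higher in TSK T cells, at 373 CPM against 287 in WT (log2 ratio 0.38, 0.19 to 0.56), and Psmb9 had a log2 ratio of 0.28 there (-0.05 to 0.61). The interval of Psmb8 included 0 in macrophages (0.03), fibroblasts (-0.02) and endothelial cells (0.03), while in neutrophils Psmb8 stood at 175 CPM in WT and 55.2 in TSK (log2 ratio -1.66, from 14 and 16 UMIs).

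Over all cancer cells, the difference between the libraries was larger for most of the 10 genes than in each of these classes, and for fewer genes over cancer cells without a UMI of Mki67 or Top2a. The log2 ratio in cancer cells minus that in the other class had an approximate 95% counting interval below 0 for 10 of 10 genes against T cells (median difference -1.70), where 16.8% of 6290 genes had one, and for 10 of 10 against macrophages (-1.47), where 20% of 6951 genes had one. Against fibroblasts (-1.09; 34.2% of 7874 genes) and endothelial cells (-1.23; 27.3% of 3903 genes) it was below 0 for 9 of 10, the exception being Nlrc5 in both. The median difference of all genes was 0.02 against T cells and macrophages, -0.31 against fibroblasts and -0.11 against endothelial cells. Cancer cells without a UMI of Mki67 or Top2a had such an interval below 0 for 7 of 10 genes against T cells (13.3% of 5337 genes; median difference -0.75) and 7 against macrophages (13.7% of 5788; -0.59). Against fibroblasts it was below 0 for 4 of 10 (31.3% of 6532; -0.14), namely H2-D1, H2-T23, Psmb8 and Psmb9, and included 0 for the other 6. Against endothelial cells it was 4 of 10 (21.1% of 3612; -0.31), and the interval of Nlrc5 lay above 0. When cells with a Cdkn2a UMI were left out of the other classes, the median log2 ratio of the 10 genes was -0.50 in fibroblasts (110 WT and 161 TSK cells) in place of -0.77, and -0.57 in endothelial cells in place of -0.66.

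Neutrophils, mural cells and natural killer cells had fewer than 20 WT cells and are given as values. The median log2 ratio was -0.87 in neutrophils (19 WT and 109 TSK cells), where 4 of the 10 genes had 50 or more UMIs, and -1.16 in mural cells (12 WT and 36 TSK cells), where 7 had. Without the cells that had a Cdkn2a UMI these medians were -1.02 and -1.57. In natural killer cells (8 WT and 7 TSK cells) 3 of the 10 genes had 50 or more UMIs. B2m was lower in TSK, at 2820 CPM in WT and 1311 in TSK (log2 ratio -1.11, -1.65 to -0.59). H2-K1 stood at 1641 and 1244 (-0.40, -0.99 to 0.16) and H2-D1 at 1025 and 807 (-0.35, -1.09 to 0.36), with intervals that include 0. The median log2 ratio there was 0.31, since Tapbp, Nlrc5, Psmb8 and Psmb9, with at most 9 UMIs in each library, had ratios above 0. Tap1 and Tap2, with 1 UMI in WT and 0 in TSK, gave no ratio. Mural cells had a Psmb8 level of 478 CPM in WT and 399 in TSK, above that of the cancer cells in both libraries.

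**Figure D3:**
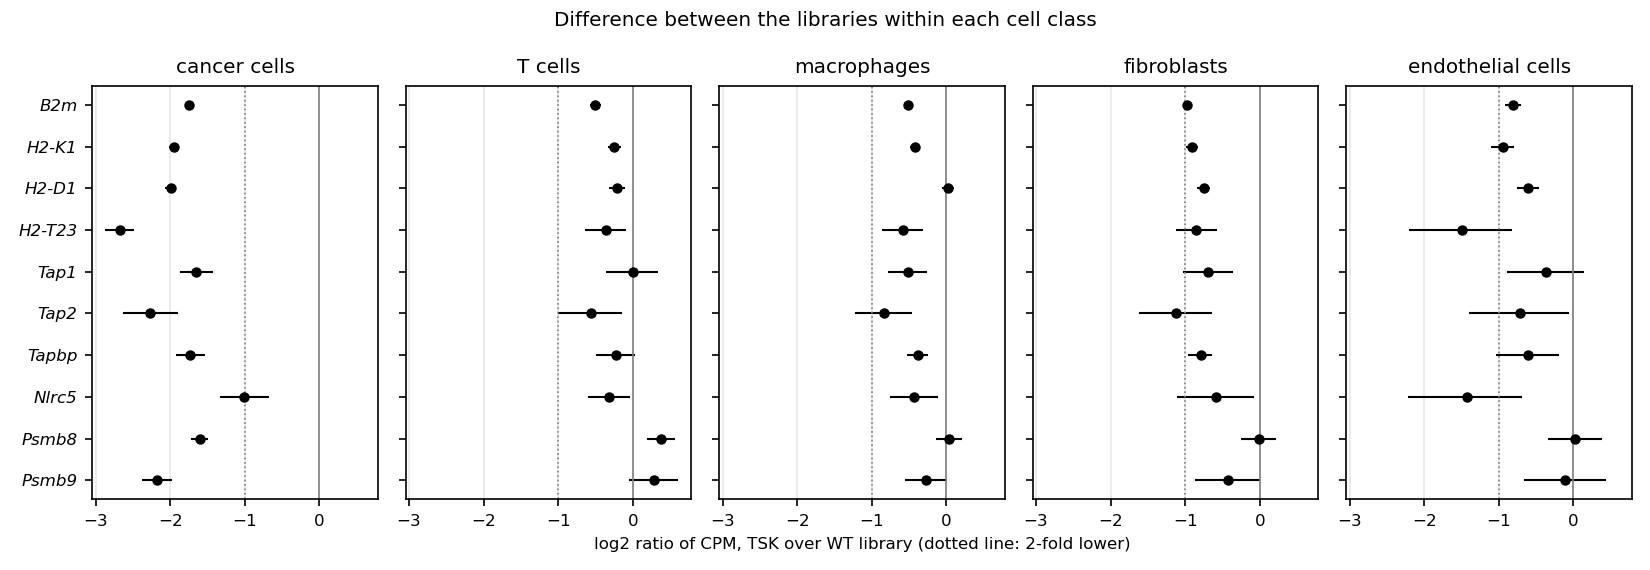
Log2 ratio of CPM, TSK over WT (x axis), for each of the 10 genes (y axis) in cancer cells, T cells, macrophages, fibroblasts and endothelial cells. Points are ratios and bars are exact 95% counting intervals; all 10 points of the cancer cells lie below the dotted line of a 2-fold lower level, and those of T cells and macrophages lie above it.

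Several measures moved with the difference between the libraries. Of the cells used, 30.1% were T cells in WT and 8.41% in TSK, and 5.34% and 29.9% were cancer cells. Ifng, which encodes interferon gamma, stood at 170 CPM in WT and 124 CPM in TSK T cells (log2 ratio -0.46, -0.77 to -0.16). Over all cells used, Ifng stood at 36.8 CPM in WT and 3.88 CPM in TSK, from 629 and 177 UMIs. The totals behind these 2 levels include cancer cells, which gave 2674256 of 17070622 UMIs in WT and 28806028 of 45661542 in TSK. The levels over all cells thus depend on the mix and depth of the cells. Gm42418 took 11.8% of the UMIs of WT and 2.60% of those of TSK cancer cells, and was also higher in WT in the 9 other classes. With Gm42418 left out of the totals, all 10 genes were 2-fold or more lower in TSK cancer cells (7.06% of all genes tested), with a median log2 ratio of -1.99. The part of the other measures in the result was not tested.

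Levels in cancer cells were also compared with the mean over T cells, macrophages, fibroblasts and endothelial cells of the same library. In WT, 4 of 10 genes were 2-fold or more lower in cancer cells (24.8% of 10989 genes were, and 19.1% were higher), namely H2-K1 (log2 ratio -1.10), Tap2 (-1.14), Tapbp (-1.43) and Nlrc5 (-1.46). In WT cancer cells with a UMI of Mki67 or Top2a the count was 2 of 10. The share over all genes was not counted for these cells, so this count cannot be set against it. B2m was lower by less, at 2373 CPM against 3250 (log2 ratio -0.45, -0.49 to -0.41), and H2-T23 was level, at 133 against 137 CPM. The immunoproteasome subunits were higher in WT cancer cells than the mean of the 4 classes, with log2 ratios of 0.56 for Psmb8 and 0.43 for Psmb9. This direction turned in the 12 WT cancer cells with at most 10000 UMIs and genes (-0.50 and -0.99, with intervals that include 0) and, for Psmb9, with the shared barcodes kept (-0.015). The median over the 10 genes was -0.57, against -0.01 over all genes tested.

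In the TSK library the cancer cells were low for the whole set. All 10 genes were 2-fold or more lower than the mean of 7 other classes (22.7% of 13391 genes were, and 15.1% were higher), from -1.02 for Psmb8 to -2.39 for Tapbp, with a median of -1.72. Those 7 classes include neutrophils, mural cells and the cells of the dendritic gate, which had 20 or more cells in TSK only. Against the same 4 classes as in WT, the median was -1.97. B2m stood at 708 CPM against 1662 (log2 ratio -1.23), H2-K1 at 210 against 832 (-1.99) and H2-D1 at 190 against 777 (-2.03).

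The order of the classes differed between genes. Among the 5 classes with 20 or more cells in both libraries, cancer cells were lowest for 5 of 10 genes in WT (13.9% of 10989 genes) and for 10 of 10 in TSK (12.3% of 13264 genes). For 4 of the 5 and 7 of the 10, the interval of the cancer cells did not overlap that of the next class. The share of all genes set apart in this way was not counted, so these counts cannot be set against it. For B2m in WT the order from low to high was cancer cells, fibroblasts, T cells, endothelial cells and macrophages, where fibroblasts and T cells, and T cells and endothelial cells, overlapped. In TSK it was cancer cells, fibroblasts, endothelial cells, T cells and macrophages, with no overlap between neighbours. Among these 5 classes, T cells had the highest Nlrc5 in both libraries, at 191 CPM in WT and 154 in TSK. In WT, Psmb8 was highest of the 5 in cancer cells (304 CPM) with T cells next (287), and these overlapped.

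**Figure D4:**
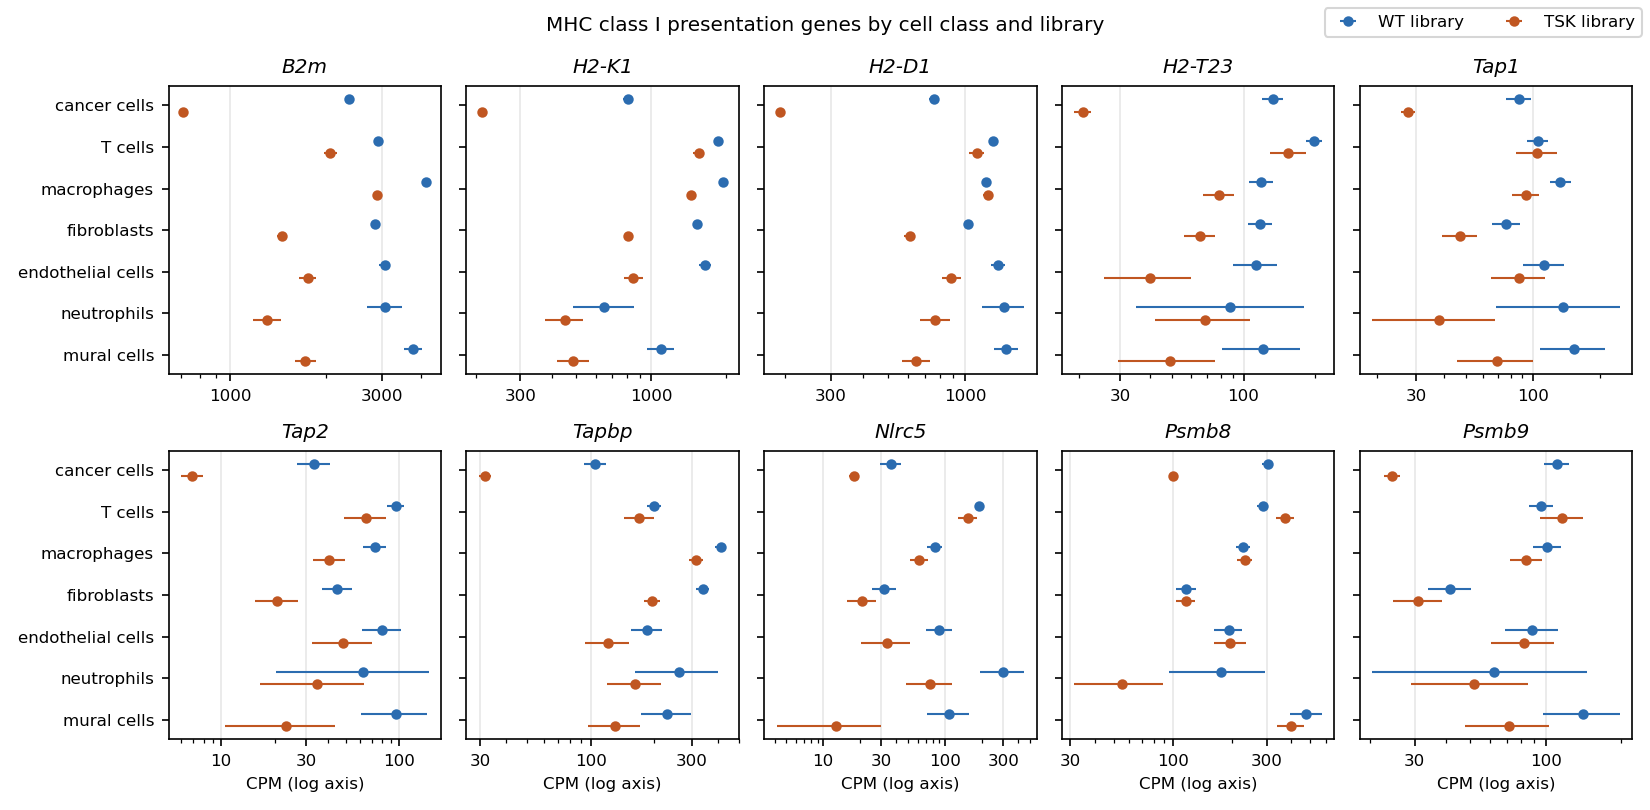
Level of each of the 10 genes (x axis, CPM, log scale) by cell class (y axis) in the WT library (blue) and the TSK library (orange); bars are exact Poisson 95% intervals of the UMI sums. The orange point of the cancer cells lies far to the left of the blue one for most genes, for example 708 against 2373 CPM for B2m, while T cells and macrophages lie closer together; neutrophils and mural cells had 19 and 12 WT cells.

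The balance between the immunoproteasome and its constitutive counterparts differed between the cancer cells of the libraries. Psmb8 made up 65.9% (63.2 to 68.6%) of the UMIs of Psmb8 and Psmb5 together in WT cancer cells and 36.4% (35.3 to 37.5%) in TSK cancer cells. Psmb9 made up 36.8% of Psmb9 and Psmb6 in WT and 9.80% in TSK. Psmb10, the third inducible subunit, made up 49.8% of Psmb10 and Psmb7 in WT and 33.8% in TSK. In T cells the share of Psmb8 was 80.7% in WT and 84.3% (80.3 to 87.8%) in TSK, and in macrophages 77.1% and 74.8%. In fibroblasts it was 68.7% and 52.4%, and in endothelial cells 69.1% and 57.6%. The share of Psmb9 was also lower in TSK outside the cancer cells, at 52.5% in WT and 36.6% in TSK macrophages, 41.5% and 19.3% in fibroblasts, and 53.8% and 29.2% in endothelial cells. In T cells it was 64.1% (59.7 to 68.3%) and 57.1% (49.4 to 64.5%). The constitutive Psmb6 was higher in TSK in these classes, with log2 ratios of 0.71 in T cells, 0.66 in macrophages, 1.14 in fibroblasts and 1.39 in endothelial cells. Psmb5 had log2 ratios of 0.98 in fibroblasts and 0.74 in endothelial cells, with intervals above 0, and 0.01 in T cells and 0.22 in macrophages, with intervals that include 0. These shares do not depend on the total UMIs of a class.

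Other genes of the class I pathway were taken from a list of 56, of which 39 had at least 50 UMIs in cancer cells. Of these 39, 10 were 2-fold or more lower in TSK cancer cells and 0 were 2-fold or more higher, beside the 5.29% and 10.2% of all genes. Among the other heavy chains, 5 of 6 were lower and the sixth, Fcgrt, which carries IgG, had a log2 ratio of -0.21. H2-M3, which presents formylated peptides, had the lowest ratio (-2.24, from 21 and 48 UMIs), followed by H2-T22 (-2.05) and H2-Q4 (-1.94). The Q genes are near-identical copies, so their separate values are uncertain.

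Among the proteasome genes 0 of 7 were 2-fold apart. The constitutive subunits Psmb5 (0.15), Psmb6 (0.25) and Psmb7 (0.10) had log2 ratios near that of all genes (0.18). The inducible subunit Psmb10 (-0.86, -1.01 to -0.70) and the activator subunits Psme1 (-0.51) and Psme2 (-0.45) were lower in TSK by less than 2-fold. Psme3, a proteasome activator of the nucleus, had the highest ratio of the list (0.52, 0.21 to 0.84). Among the loading and trimming genes, which include the general chaperones calreticulin and calnexin, 0 of 5 were 2-fold apart. Of these, Tapbpl, a relative of tapasin (-0.93, -1.66 to -0.12), and the trimming peptidase Erap1 (-0.82) were furthest below 0. These Psmb10, Psme1, Psme2, Tapbpl and Erap1 values were named after they were seen.

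Among 15 regulators, 5 were 2-fold or more lower in TSK cancer cells (5.29% of all genes tested were). They included Nfkb1 (424 against 169 CPM, log2 ratio -1.33), Irf1 (93.9 against 39.1 CPM, -1.26), the cytokine signalling inhibitor Socs1 (-1.24) and Irf9 (-1.22), all named after their values were seen. Irf1 and Irf9 act downstream of interferon receptors. The CCAAT-binding subunits Nfyc (0.43) and Nfya (0.38, -0.11 to 0.92) lay at the other end. Rfx5 (0.05), Rfxap (0.31), Rfxank (0.12), Creb1 (0.15) and Rela (-0.18) had intervals that include 0. The median of the 15 regulators was -0.18. Of the 6 interferon receptors and kinases, 0 were 2-fold apart. Outside the cancer cells the log2 ratio of Irf1 was -0.20 in T cells (-0.50 to 0.09), -0.26 in fibroblasts, -0.84 in macrophages and -1.32 in neutrophils. In endothelial cells Irf1 stood at 261 CPM in WT and 92.1 in TSK. Socs1 was also lower in TSK macrophages (log2 ratio -1.37), fibroblasts (-0.87), endothelial cells (-1.07) and neutrophils (-2.39), with intervals below 0. In T cells its interval included 0 (-0.06, -0.54 to 0.40). Irf9 was lower in TSK macrophages (-0.83, -1.28 to -0.39). Its intervals included 0 in T cells, fibroblasts, endothelial cells and neutrophils.

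The 39 genes were also ranked in cancer cells against the other cell types, by the mean of the log2 ratios of both libraries. This mean joins unlike baselines, 4 classes in WT and 7 in TSK, among them the dendritic gate. The lowest were Fcgrt (log2 ratios -2.78 in WT and -3.01 in TSK), H2-Q6 (-2.66 and -3.04) and Ifngr1, a chain of the interferon gamma receptor (-2.70 and -2.55). The highest were the constitutive subunits Psmb6 (1.44 and 0.70), Psmb5 (1.19 and 0.75) and Psmb7 (1.15 and 0.75). Hfe (-4.70 and -5.75) and H2-Q10 (-2.17 and -3.42) were not ranked, since they had 2 and 3 UMIs in WT and 7 and 41 in TSK cancer cells. Ifng and the receptor genes Cd8a, Cd8b1, Klrc1 and Klrd1 had too few UMIs in cancer cells to be compared.

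**Figure D5:**
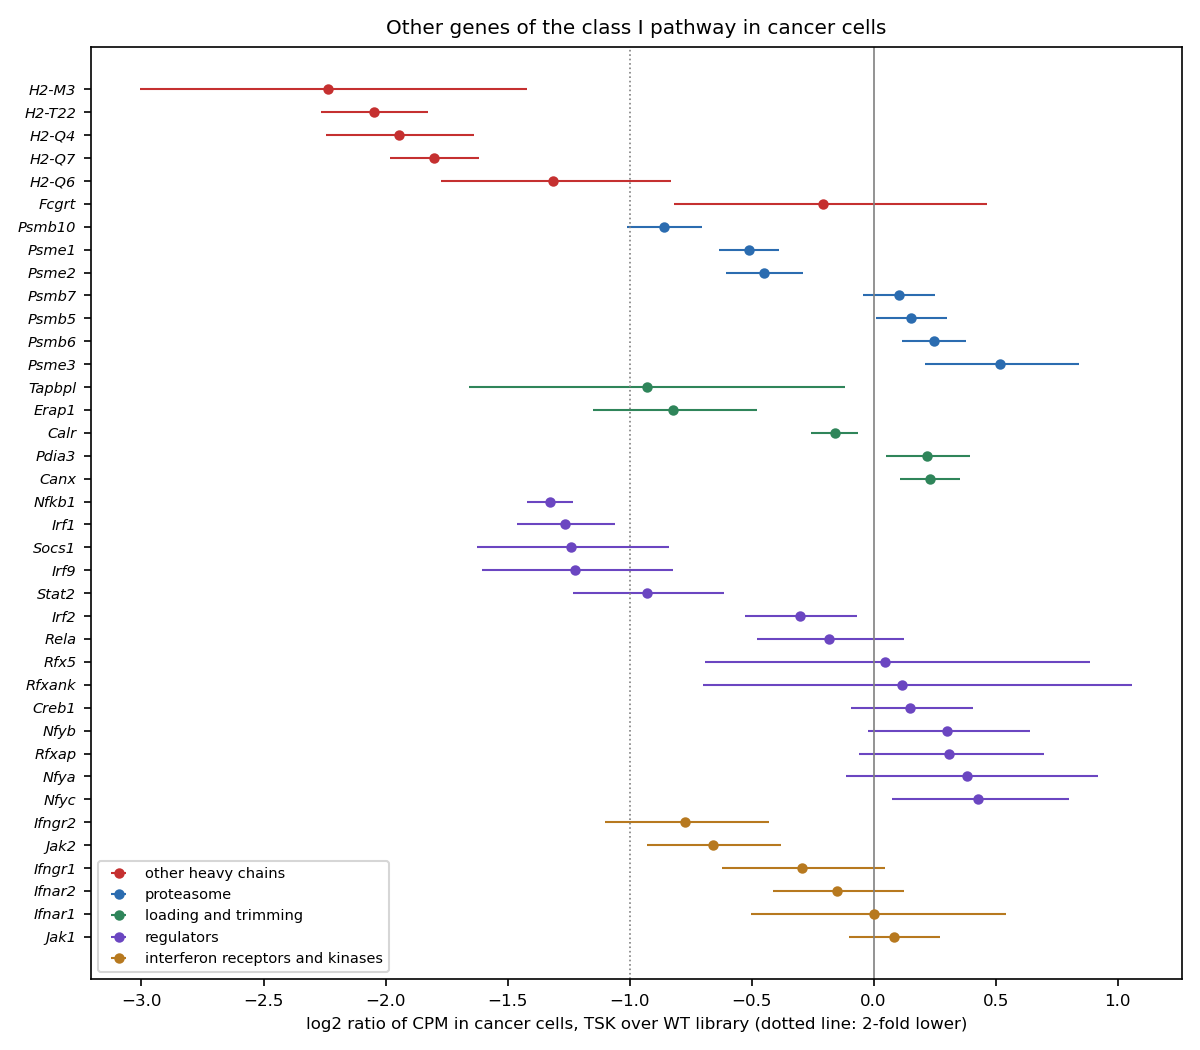
Log2 ratio of CPM in cancer cells, TSK over WT (x axis), for 38 of the 39 other genes of the class I pathway with at least 50 UMIs (y axis), coloured by group; bars are exact 95% counting intervals. Of the 6 heavy chains, 5 (from -2.24 for H2-M3) lie left of the dotted line of a 2-fold lower level, as do part of the regulators, and Fcgrt (-0.21) lies right of it; the constitutive proteasome subunits lie just right of 0.

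The genes most like the class I set across cell types were sought over 13 profiles, each a class with 20 or more cells in 1 library, by Pearson's r of log2(CPM + 1) with the mean of the 10 members among 11127 genes. Outside the set, these included Gm42418 (0.92), Ifi47 (0.90), Gm48099 (0.85) and Gbp7 (0.84). Ifi47 and Gbp7 belong to the interferon-inducible GTPases. Each member was compared with the mean of the other 9 members, where H2-K1 and H2-D1 had the highest r, at 0.95 each, and Psmb8 (0.60) and Nlrc5 (0.57) the lowest. The profiles share their libraries and totals, so r describes likeness over these 13 profiles alone.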

How the data were processed

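Reads were aligned and UMIs counted by the authors using Cell Ranger (version 7.1.1 in the submitters' processing notes, 7.1.0 per the file headers; genome mm10), and raw counts per gene and barcode were deposited without normalization. Filters and classes are given with the results. The study's upper limit of 10000 UMIs and genes was not applied, since it leaves 12 WT cancer cells, and was run as an alternative. Doublets were not called; cells that met several gates (45 WT and 41 TSK) were left out, and 510 and 1090 cells met none. UMI sums per class and library were compared without a test. A gene counted as lower or higher at 2-fold or more, with a count of 0 set to 3 counts and no ratio given where this would turn the observed order. Intervals of ratios between classes are approximate. Named genes were the 10 members, the 3 highest and 3 lowest of the pathway list by each ratio, and the 5 genes most like the members; 1 gene of the pathway list and 1 of these 5 are not reported here. Members, lists and gates were chosen with earlier results of these data known. On simulated Poisson counts of 12261 genes, 95.6% of the intervals of the TSK over WT ratio in cancer cells covered the true value. The simulation held no spread between cells or mice, so it checks the calculation only and not whether the intervals are wide enough. Tools were Python 3.11.15, scipy 1.17.1, numpy 2.4.6, matplotlib 3.10.9 and pandas 2.3.3.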

Additional observations from a re-analysis of the deposited data

Results flagged for a closer look

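Psmb8 had opposite directions in T cells, where its log2 ratio of TSK over WT was 0.38, and in cancer cells, where it was -1.60; with 1 library each, the difference between the genotypes was not tested, and the difference between the classes is given with the results. The barcodes found in both libraries, which were left out of all comparisons, also held class I transcripts, with B2m at 1912 CPM in the 251 such barcodes of the WT library and 463 CPM in the 255 of the TSK library that passed the cell filter. Of these, 17 WT and 1 TSK barcodes met the cancer gate.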

How the results depend on the processing

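No paired analysis was possible because each genotype had 1 library, and no replicate could be left out. All 10 genes were lower in TSK cancer cells under 9 of the 11 alternatives that bear on them, and 9 were in cells without Mki67 or Top2a. With at most 10000 UMIs and genes, which leaves 12 WT and 116 TSK cancer cells, 9 were, and Tap1, at 0 in WT and not in TSK, gave no ratio. The share of all genes lower by any amount was not counted under these alternatives, so these counts cannot be set against it. Of the summary values 74 were close to those reported and 19 moved. In cancer cells the median log2 ratio of TSK over WT was -1.61 with shared barcodes kept, -1.71 with each cell weighing the same, -2.03 scaled to the median gene ratio, -1.99 with Gm42418 left out, -2.10 in cells with Mki67 or Top2a and -0.99 in cells without, where 5 genes were 2-fold apart. With the limit of 10000 it was -1.65 over 9 genes, of which 5 were 2-fold lower (3.5% of 1571 genes) and 4, Tap2, Nlrc5, Psmb8 and Psmb9, had intervals that include 0. The macrophage median was then -0.71. Cancer cells over other lineages in WT had a median of -1.05 with that limit, -0.73 with shared barcodes kept, -0.68 with each cell weighing the same, -0.79 with Gm42418 left out and -1.11 in cells without Mki67 or Top2a. In WT cells with them 2 genes were 2-fold lower, a count without a share of all genes beside it. In TSK this median was -2.45 with the limit, -1.97 against 4 lineages and -1.19 without Mki67 or Top2a. Of values whose interval excluded 0, directions turned for Psmb8 (-0.50 with the limit) and Psmb9 (-0.99 with the limit, -0.015 with shared barcodes kept) in WT cancer cells over other lineages, for Tap1 there (0.060 in cells with Mki67 or Top2a), and for Nlrc5 between the libraries (0.036 in cells without). Of values near 0, signs turned in 12 more instances, for H2-T23 in WT cancer cells over other lineages, H2-D1 and Psmb8 in macrophages and Tap1 in T cells. The causes were not tested. Few UMIs limit the precision of Tap2 (89 in WT cancer cells, 29 in TSK endothelial cells) and Nlrc5 (96 and 20).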
